A study of Homo sapiens with 4 samples.

Results

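The AP-1 family was examined through 10 genes: the FOS-type genes FOS, FOSB, FOSL1 and FOSL2, the JUN-type genes JUN, JUNB and JUND, and the related genes BATF, BATF3 and ATF3. They were chosen by name and not by a cut-off on a measured value, though earlier results of these data were known. An ATAC-seq peak, a stretch of DNA where the Tn5 transposase inserted adapters more often than in the background, was given to a member when that gene's body was the nearest of 19970 protein-coding gene bodies to the peak's summit and lay within 100 kb. By this rule 52 of 76402 peaks in the DMSO library, 50 of 76636 in ATRA, 48 of 69162 in POM and 56 of 85434 in ATRA+POM belonged to the family. Overlapping peaks of the 4 lists merged into 64 member regions of 122632 regions in all. The farthest peak inside the limit lay 90.9 kb from JUN, and the nearest outside it lay 100.022 kb from JUN, in DMSO.

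AP-1 is a dimeric transcription factor whose subunits hold each other through leucine zippers and grip DNA with an adjoining basic region. JUN proteins pair with each other or with FOS proteins, FOS proteins need a JUN partner, and BATF and BATF3 lack a transactivation domain and work with JUN and IRF proteins at composite elements. Many of these genes are immediate early genes: their chromatin is open before a stimulus, and kinase cascades induce them within minutes, partly through AP-1 and ATF sites in their own promoters. In lymphocytes BATF and IRF4 bind such elements together, and IRF4 is a factor that myeloma cells depend on.

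The cells were OPM-2, an established line from human multiple myeloma, a cancer of plasma cells. They were kept for 72 h with the vehicle DMSO alone, with 1 µM all-trans retinoic acid (ATRA, which activates retinoic acid receptors), with 1 µM pomalidomide (POM, which turns the cereblon ubiquitin ligase on Ikaros proteins) or with both (ATRA+POM). All 4 groups are the same line with no engineered allele named in the labels, so the model is a single line and no primary cells were examined. Each group has 1 library. No difference therefore has a replicate check, no p-value is given, and a bulk library cannot tell fewer cells with an open site from less opening per cell.

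The libraries differ in depth. Depth was estimated as the smallest background recovered in a list divided by its smallest peak width. That width was 234 bp in DMSO, 248 bp in ATRA, 162 bp in POM and 238 bp in ATRA+POM. By this estimate ATRA had 94.1%, POM 33.6% and ATRA+POM 62.7% of the depth of DMSO. The median peak width was 577 bp in DMSO, 580 bp in ATRA, 354 bp in POM and 517 bp in ATRA+POM. All 8 plasma cell marker genes had a peak within 1 kb of a gene boundary in every list, the 4 monocyte markers had none in any list, and 2 of the 4 T cell markers had one in each. Of 4 epithelial markers 1 had one in DMSO and 0 in the other lists.

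The values below are summit pileups, the number of reads stacked at a summit, recovered from the deposited fold and p-value. Summits of different lists with gaps of at most 250 bp form a site, and the family has 71 sites, 36 of them with a summit in all 4 lists. To set libraries side by side, each pileup was divided by a scale, the median ratio of a library's pileups to those of DMSO in the regions that all lists hold. The scale is 0.873 in ATRA, 0.396 in POM and 0.707 in ATRA+POM, and the result is called the scaled pileup. A ratio is a quotient of scaled pileups, and its 95% Clopper-Pearson interval covers counting error only. Values given with local background are instead quotients of scaled folds. The fold is summit pileup plus 1 over local background plus 1. It was divided by the library's median fold ratio to DMSO in the same regions, 0.935 in ATRA, 1.20 in POM and 1.11 in ATRA+POM. POM vs DMSO, ATRA vs DMSO and ATRA+POM vs DMSO share the DMSO library, so their values stand side by side and are not independent. Sites are named by distance from the transcription start, with negative numbers upstream.

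The 200 bases upstream of the starts are shown for 5 members that were picked for their peaks. JUN had the highest-ranked member peak of the combination, ATF3 that of the other lists, and JUND, JUNB and FOSB carried sites that were lower in both POM libraries. The ATF3 summit lies in the gene body. The sites of JUND, JUNB and FOSB that were at least 2-fold lower have summits downstream of the start, outside the bases shown. Sequences are from RefSeq on GRCh38.p14, written 5′ to 3′ on the gene's strand up to the base before the start, and the capitals mark TGANNTCA, the 8-base AP-1 and ATF element searched on both strands, which includes the cAMP response element TGACGTCA.
JUN, chr1:58784048-58784247, minus strand: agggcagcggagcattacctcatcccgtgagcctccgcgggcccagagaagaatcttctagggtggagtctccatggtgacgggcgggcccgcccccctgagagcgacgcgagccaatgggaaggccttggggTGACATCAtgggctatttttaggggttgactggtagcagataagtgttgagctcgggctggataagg
JUND, chr19:18281623-18281822, minus strand: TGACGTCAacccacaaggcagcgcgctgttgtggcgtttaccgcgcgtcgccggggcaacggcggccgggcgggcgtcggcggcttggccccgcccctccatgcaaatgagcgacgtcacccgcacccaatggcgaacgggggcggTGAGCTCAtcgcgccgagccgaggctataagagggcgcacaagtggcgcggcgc
ATF3, its first listed start, chr1:212565207-212565406, plus strand: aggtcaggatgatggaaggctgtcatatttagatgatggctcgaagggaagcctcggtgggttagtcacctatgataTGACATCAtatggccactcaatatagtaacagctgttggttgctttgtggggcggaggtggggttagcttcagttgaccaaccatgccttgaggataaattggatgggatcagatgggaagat
JUNB, chr19:12791286-12791485, plus strand: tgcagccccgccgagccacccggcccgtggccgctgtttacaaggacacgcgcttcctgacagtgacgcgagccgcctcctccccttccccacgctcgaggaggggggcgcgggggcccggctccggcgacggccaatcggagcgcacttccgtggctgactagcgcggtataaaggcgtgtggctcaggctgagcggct
FOSB, chr19:45467796-45467995, plus strand: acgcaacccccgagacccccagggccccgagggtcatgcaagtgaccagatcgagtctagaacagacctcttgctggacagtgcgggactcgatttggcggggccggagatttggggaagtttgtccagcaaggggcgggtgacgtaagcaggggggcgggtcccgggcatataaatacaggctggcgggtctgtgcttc

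JUN carried TGACATCA at bases -67 to -60 from its start, ATF3 carried the same letters at -123 to -116, and JUND carried TGACGTCA at -200 to -193 and TGAGCTCA at -54 to -47. The windows searched ran from 250 bases before to 50 bases after each start, and 8 members with 9 starts were in the promoter table. TGANNTCA stood in 3 of these 9 windows and in 9.81% of 22131 windows of all genes. The TPA response element TGANTCA stood in 1, that of FOSL2 at 5 to 11 bases after its start, and in 6.15% of all windows, and TGACGTCA stood in JUND and in 2.26% of all. TGGGAA, the core letters of the Ikaros motif, stood in the windows of ATF3, BATF and JUN and in 22.7% of all. The core letters of the serum response element and of the retinoic acid receptor direct repeat stood in none of the 9, against 0.0407% and 0.00452% of all windows. Bases outside these windows were not searched, so the result says nothing of elements farther upstream, in FOS or any other member. A match describes letters in a window and is not a binding site.

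All 10 genes had peaks in all 4 lists. The median member gene had 4.5 peaks in DMSO, 5 in ATRA, 4 in POM and 5 in ATRA+POM, where the median protein-coding gene had 2 in each. As a share of each list, member peaks were 0.0681% in DMSO, 0.0652% in ATRA, 0.0694% in POM and 0.0655% in ATRA+POM. FOS had the most, with 14 peaks in DMSO and 12 in each other list, followed by JUN with 8 in DMSO, 7 in ATRA, 7 in POM and 8 in ATRA+POM. FOSL1 had 2 in every list. FOSB had 2 in DMSO and in ATRA but 4 in POM and 3 in ATRA+POM, where the POM lists called several summits inside the stretch of a single DMSO peak of 2497 bp. JUNB had 2 peaks in each list except POM with 1, because the POM summit at its start lay 11 bp upstream, inside the body of the neighbouring gene HOOK2.

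**Figure D1:**
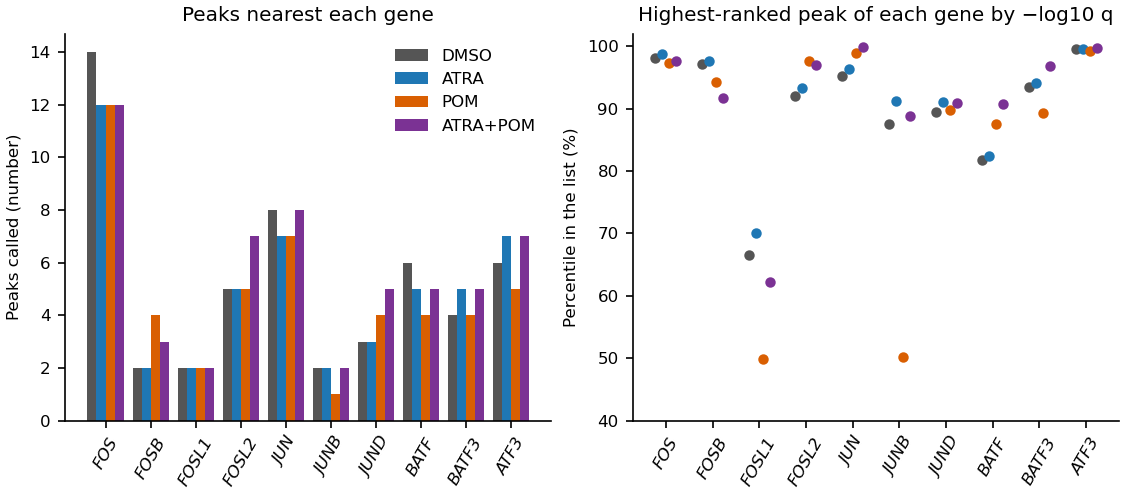
Left, number of peaks nearest each AP-1 gene in each library (bars from 0); right, percentile of each gene's highest-ranked peak by −log10 q within its own list, 100 being the strongest. FOS has the most peaks in every list, and the JUN point of ATRA+POM (rank 43) is the highest; the low JUNB point of POM excludes its start peak, which the rule gives to HOOK2.

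The authors' −log10 q-value ranks peaks within a list. Of the member peaks, 24 in DMSO, 23 in ATRA, 20 in POM and 22 in ATRA+POM were strong, meaning among the 20000 highest of their list, which is 46.2%, 46%, 41.7% and 39.3%, against 26.2%, 26.1%, 28.9% and 23.4% of all peaks. ATF3 led the family in DMSO at rank 316, in ATRA at 366 and in POM at 510, and stood at 184 in ATRA+POM. JUN stood at rank 3649 in DMSO, 2826 in ATRA, 783 in POM and 43 in ATRA+POM, so in the combination it passed ATF3. Among the FOS-type genes, the best peak of FOS stood at 1397, 1015, 1816 and 1967, that of FOSB at 2172, 1786, 3956 and 7108, and that of FOSL2 at 6125, 5152, 1657 and 2585, in the same order. FOSL1 was lowest in DMSO at 25578 and was below rank 20000 in every list. Lists differ in length and depth, so ranks describe a peak's place in its list and not a change.

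Most member regions were shared. Of the 64 merged regions, 37 (57.8%) were called in all 4 lists, against 35% of all regions. The 4 called in both POM-containing lists and in no other were weak: BATF3 at 18.8 kb from its body with pileups of 15 in POM and 28 in ATRA+POM, JUND at -8.8 kb with 10 and 27, FOS at 23.2 kb with 11 and 13, and FOSL2 at 43.9 kb with 5 and 18. They are 6.25% of member regions, and 6.05% of all regions had this pattern. The reverse pattern, in DMSO and ATRA but in neither POM list, was found at 1 region, BATF at 28.5 kb with pileups of 13 and 12, which is 1.56% of member regions against 6.31% of all. Both ATRA-containing lists alone held 2, ATF3 at -25.1 kb with 12 and 12 and BATF3 at 8.0 kb from its body with 23 and 13, or 3.13% against 2.13% of all.

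The JUN-type genes encode the subunits that FOS and BATF proteins pair with. At the start of JUN, chr1:58783038-58785280 in the DMSO list, the pileup was 415 in DMSO, 413 in ATRA, 199 in POM and 582 in ATRA+POM, or 415, 473, 503 and 823 once scaled. ATRA+POM was the highest of the 4 libraries and the only one above 503. The ratio to DMSO was 1.98 in ATRA+POM (interval 1.75 to 2.25), 1.14 in ATRA (0.992 to 1.31) and 1.21 in POM (1.02 to 1.44). Against the single agents the combination gave 1.74 relative to ATRA (1.53 to 1.98) and 1.64 relative to POM (1.39 to 1.93). The ratio of ATRA+POM to DMSO lay at percentile 98.6 of the sites within 1 kb of a gene boundary and at percentile 86.2 of all sites. It just missed the 2-fold line with the main scale and was 2.24 when scaled by background and 2.76 when scaled by boundary regions. With local background, as a quotient of scaled folds, it was 1.87. By the same measure the combination gave 1.76 relative to ATRA and 1.29 relative to POM. The scaled local background there was 72.6 in DMSO, 83.5 in ATRA, 49.0 in POM and 68.8 in ATRA+POM. In background, ATRA+POM was thus under ATRA and under DMSO but above POM. Summits lay 131, 82, 201 and 102 bp upstream of the start in DMSO, ATRA, POM and ATRA+POM, and the TGACATCA shown above lies under all 4 peaks.

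Flanking sites of JUN varied one by one. At -32.4 kb the pileup was 109 in DMSO, 92 in ATRA, 27 in POM and 93 in ATRA+POM, and POM was the low library, with a ratio to DMSO of 0.626 (0.395 to 0.961) and of ATRA+POM to POM of 1.93 (1.24 to 3.08). At -90.9 kb it was 66, 48, 30 and 71, which made ATRA+POM 1.52 times DMSO (1.07 to 2.16) and 1.83 times ATRA (1.25 to 2.69), but 1.02 and 1.28 with local background. At 28.5 kb downstream of the start a weak site had 13, 16, 21 and 29 reads. Both POM libraries were higher there, POM at 4.08 times DMSO (1.95 to 8.87) and ATRA+POM at 3.15 times (1.59 to 6.61), the highest member ratios in both comparisons though on few reads, and 2.21 and 2.2 with local background. At 10.6 kb the pileup was 56, 43, 28 and 30, and ATRA+POM stood at 0.600 of POM with an interval that reaches 1.04.

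**Figure D2:**
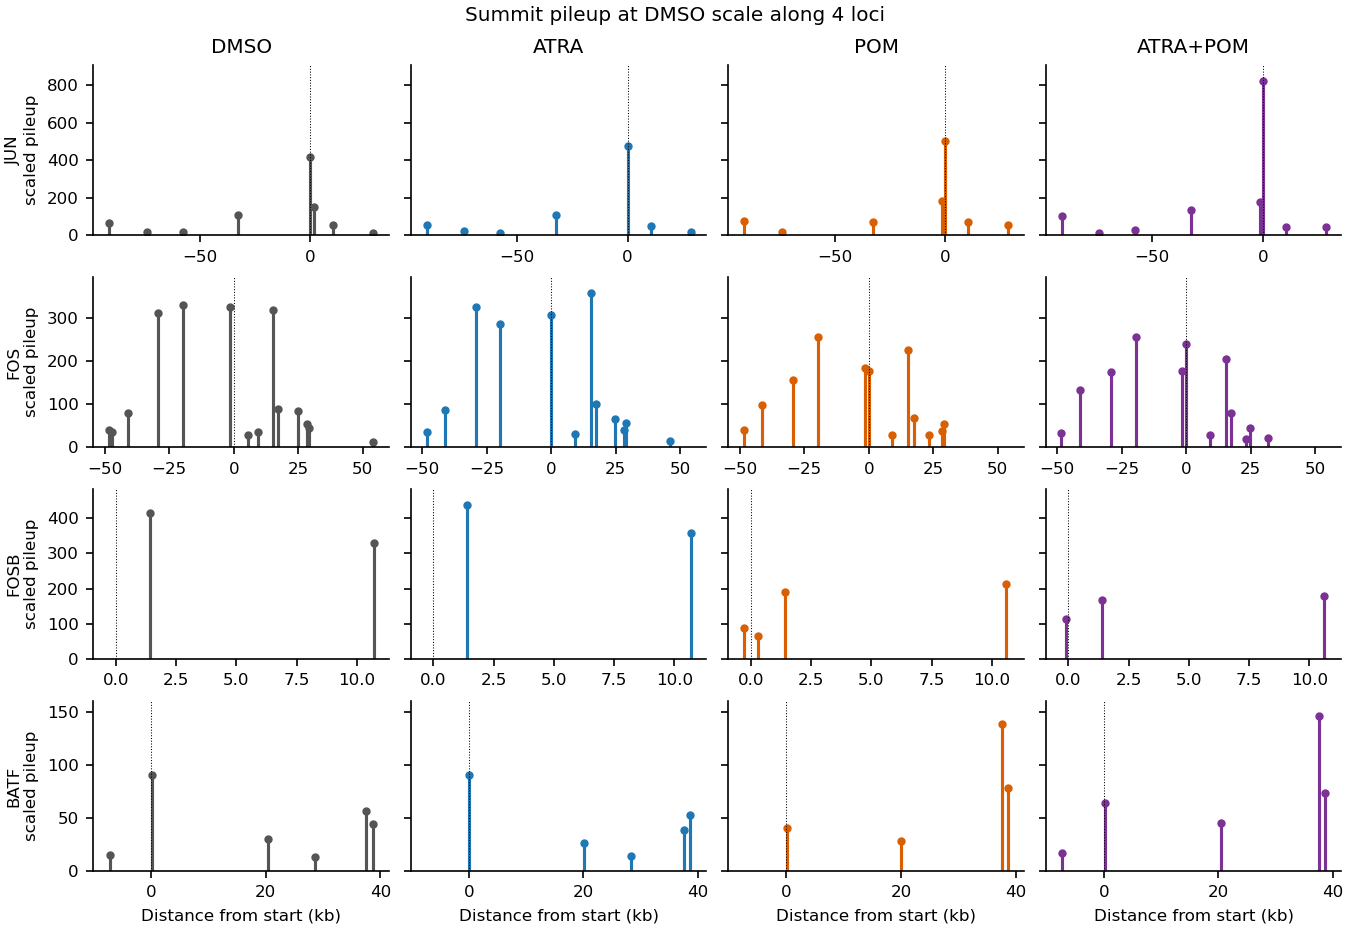
Scaled summit pileup (vertical axis, reads at DMSO scale) of every summit nearest JUN, FOS, FOSB and BATF against distance from the transcription start in kb (horizontal axis), 1 column per library; the dotted line is the start. The JUN start reaches 823 in ATRA+POM against 415 in DMSO, the FOSB sites are lower in POM and ATRA+POM (POM at 10.7 kb turns above DMSO with local background), and BATF has its highest summits 37.5 kb downstream in the same libraries.

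JUNB and JUND, the relatives of JUN in the same subfamily, had sites that were lower in the POM libraries. JUNB had 2 sites. At 2.2 kb downstream of its start, chr19:12793404-12794060, the pileup was 366 in DMSO, 362 in ATRA, 51 in POM and 93 in ATRA+POM, which scales to 366, 415, 129 and 132. Both POM-containing libraries lay far under both others and close to each other, with a ratio to DMSO of 0.352 in POM (0.257 to 0.473) and 0.359 in ATRA+POM (0.283 to 0.452) and of ATRA+POM to POM of 1.02. This site stayed below DMSO under each alternative scaling, at 0.782 and 0.708 with local background. Such falls were common on chromosome 19, which also holds JUND and FOSB. Of its sites within 1 kb of a gene boundary, 44.3% in POM and 45.5% in ATRA+POM were at least 2-fold lower than DMSO. Of all its sites, 38.7% and 41% were. At the JUNB start the pileup was 333, 347, 93 and 164, with ratios of 0.706 in POM (0.554 to 0.890) and 0.696 in ATRA+POM (0.574 to 0.842), and the direction turned to 1.58 and 1.39 with local background. The scaled local background at this start was 99.2 in DMSO, 101 in ATRA, 34.9 in POM and 43.7 in ATRA+POM: lower in the POM libraries by more than the summit itself.

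JUND had a site at its start and a site inside the gene. At the latter, 1.2 kb after the start, the pileup was 238 in DMSO, 226 in ATRA, 35 in POM and 77 in ATRA+POM, with ratios to DMSO of 0.372 in POM (0.253 to 0.531) and 0.457 in ATRA+POM (0.349 to 0.594). Under each alternative scaling both ratios stayed below 1, at 0.611 and 0.671 with local background. At the start the pileup was 322, 311, 99 and 174, with ratios of 0.777 (0.614 to 0.976) and 0.764 (0.632 to 0.922), which turned to 1.28 and 1.12 with local background and to 1.08 and 1.06 with the boundary scale. A summit 2.0 kb after the start was called on its own only in POM, with 60 reads, and in ATRA+POM, with 78. In DMSO and ATRA a wider peak with its summit elsewhere covered it. In POM this was the higher-ranked summit of the merged region. With its 60 reads in place of 35, the POM ratio to DMSO stayed below 1 but was no longer 2-fold lower.

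FOS, the founding partner of JUN, had no site that reached 2-fold in any comparison among sites called in both lists. Its peaks without a call in the other list have no ratio. Its strongest sites lay outside the gene. At -19.6 kb the pileup was 329 in DMSO, 249 in ATRA, 101 in POM and 181 in ATRA+POM, and the ratio to DMSO was 0.776 in POM (0.614 to 0.972) and 0.778 in ATRA+POM (0.645 to 0.936); with local background it was 1.28 and 1.13 and with the boundary scale 1.08 in both. At -29.2 kb the pileup was 312, 283, 62 and 123, lower in both POM libraries, with ratios of 0.502 (0.376 to 0.661) and 0.557 (0.449 to 0.689), though 0.988 and 1.04 with local background. At 15.4 kb it was 318, 313, 89 and 144, with ratios of 0.707 and 0.640, and 1.08 and 0.996 with local background. At -41.1 kb, in contrast, the pileup was 79, 76, 39 and 94 and ATRA+POM was the highest library, at 1.68 times DMSO (1.23 to 2.30), against 1.25 in POM (0.827 to 1.85). With local background these values were 1.42 and 1.35, and ATRA+POM was 1.05 times POM.

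Every list had a peak over the FOS start, but DMSO and ATRA each called a single peak there, 2271 and 2256 bp wide, whose summits lay at different ends. The summit within 1 kb of the start had 267 reads in ATRA, 70 in POM and 169 in ATRA+POM, so that DMSO has no value at this site. ATRA+POM was 1.35 times POM (1.02 to 1.81) and 0.781 times ATRA (0.641 to 0.951) there, but with local background the values were 1.14 and 1.09, so the order relative to ATRA turned, as it did with the boundary scale. The strong DMSO peak that POM lacked lay 24.9 kb after the start, chr14:75303459-75303983, with 84 reads in DMSO, 56 in ATRA, none called in POM and 31 in ATRA+POM. At the scale of POM, 84 reads correspond to 33.2, and the smallest pileup called in POM was 4. Neighbouring sites at 28.3 kb, with 53, 35 and 15 reads, and at 29.1 kb, with 45, 48 and 21, were called in DMSO, ATRA and POM but not in ATRA+POM.

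FOSB, the other immediate early FOS gene, had lower scaled pileups in both POM libraries at both of its sites called in all lists. At 1.4 kb, inside the gene at chr19:45467572-45470068, the pileup was 414 in DMSO, 383 in ATRA, 75 in POM and 119 in ATRA+POM, which scales to 414, 439, 189 and 168. Both POM libraries lay under both others, at 0.458 of DMSO in POM (0.353 to 0.587) and 0.406 in ATRA+POM (0.329 to 0.5), and at 0.860 and 0.674 with local background. At 10.7 kb the pileup was 328, 313, 84 and 126 and the ratios were 0.647 (0.503 to 0.825) and 0.543 (0.439 to 0.669), of which the POM ratio turned to 1.16 with local background. Summits at the start itself were called only in POM, with 35 reads, and in ATRA+POM, with 81. They lie within the region that the wide peak covered in the other lists.

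FOSL1 and FOSL2, the FOS-related antigens, differed from each other. FOSL1 had 2 modest sites. Just outside its boundary, on chromosome 11 at 65900586, the pileup was 70 in DMSO, 53 in ATRA, 13 in POM and 17 in ATRA+POM, with ratios of 0.469 in POM (0.238 to 0.855) and 0.343 in ATRA+POM (0.189 to 0.590). With local background they were 0.838 and 0.686, below 1 but no longer 2-fold. At 1.6 kb from the body it was 71, 61, 18 and 33, with ratios of 0.640 and 0.657, which turned to 1.09 and 1.22 with local background. The start of FOSL2 had 308, 272, 136 and 199 reads, close to DMSO in each library once scaled: 1.12 in POM (0.905 to 1.37) and 0.914 in ATRA+POM (0.761 to 1.10), although local background gave 1.70 and 1.63 and the boundary scale 1.55 and 1.27. At -2.2 kb FOSL2 had 152, 123, 30 and 51 reads and ratios of 0.499 (0.325 to 0.741) and 0.474 (0.338 to 0.656), which became 0.795 and 0.861 with local background, below 1 but no longer 2-fold.

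**Figure D3:**
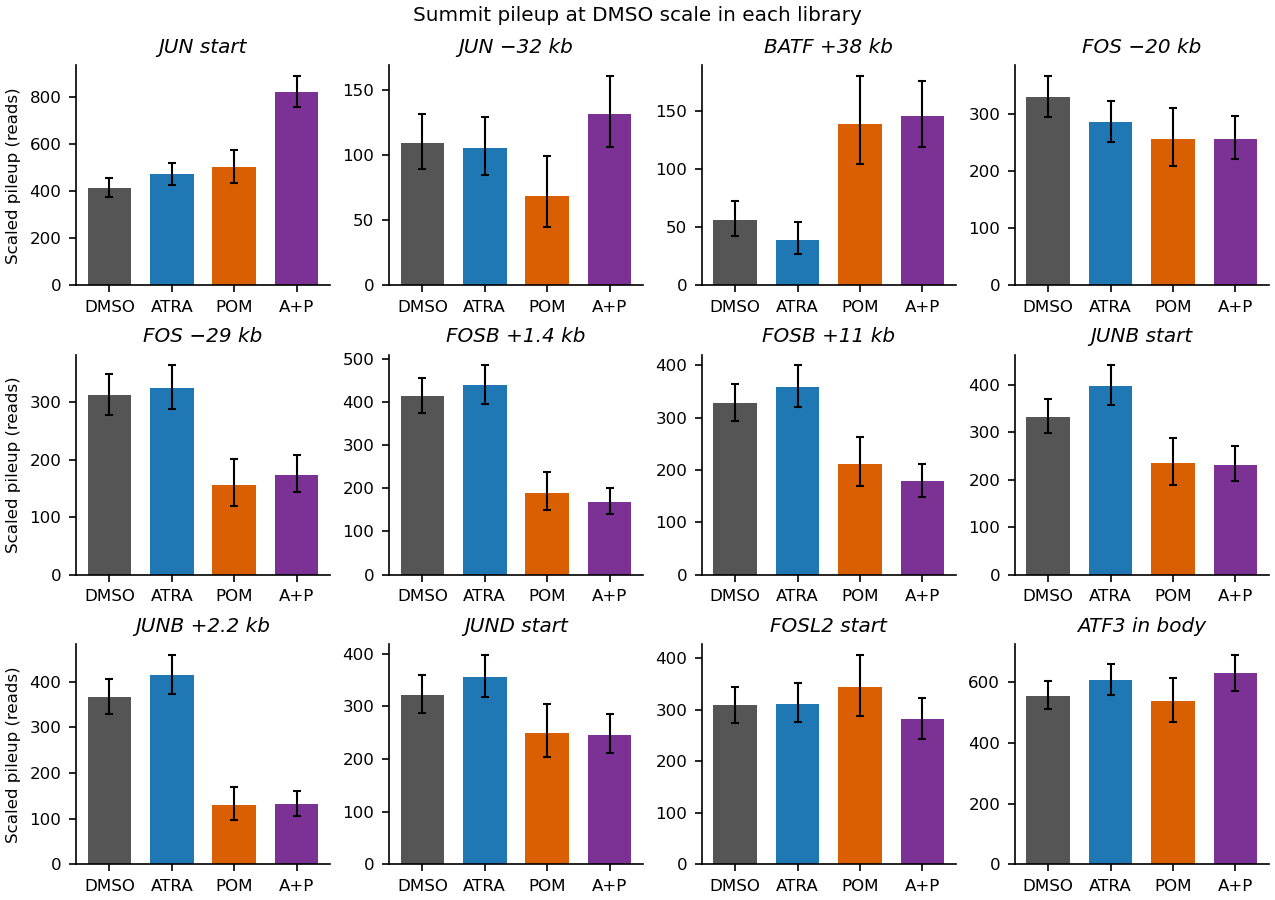
Scaled summit pileup (reads at DMSO scale, bars from 0) at 12 AP-1 sites in the DMSO, ATRA, POM and ATRA+POM (A+P) libraries; error bars are exact Poisson 95% intervals for counting error, with 1 library per bar. JUN start is highest in ATRA+POM, BATF +38 kb is higher and JUNB +2.2 kb and FOSB +1.4 kb are lower in both POM libraries. The lower POM bars at the JUNB start, JUND start, FOS −20 kb, FOSB +11 kb and ATF3 turn above DMSO with local background.

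BATF, which pairs with JUN and recruits IRF4, held the member site with the highest ratio to DMSO in both POM libraries among those with at least 30 reads. It lies 37.5 kb after the start and 13.0 kb past the gene's end, at chr14:75559624-75560558 in the DMSO list. The pileup was 56 in DMSO, 34 in ATRA, 55 in POM and 103 in ATRA+POM, or 56, 38.9, 139 and 146 once scaled, so the ATRA library was the lowest and both POM libraries the highest. The ratio to DMSO was 2.48 in POM (1.68 to 3.67) and 2.60 in ATRA+POM (1.86 to 3.67), and to ATRA it was 3.74 in ATRA+POM (2.52 to 5.69). The last shares no library with POM vs DMSO. The site was named for being among the 3 highest in each of these comparisons, so none is a check on another. The 95th percentile of all sites was 2.78, 2.88 and 2.74 in the same order. ATRA+POM and POM gave a ratio of 1.05 to each other (0.748 to 1.48). With local background the values were 1.54 and 1.46 relative to DMSO and 1.99 relative to ATRA, so they were above 1 and under 2. The next site, at 38.7 kb, had 44, 46, 31 and 52 reads and ratios of 1.78 in POM (1.09 to 2.88) and 1.67 in ATRA+POM (1.10 to 2.56), with 1.18 and 0.997 by local background.

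The BATF start showed the opposite order. It had 90 reads in DMSO, 79 in ATRA, 16 in POM and 45 in ATRA+POM, and POM stood at 0.449 of DMSO (0.246 to 0.770), or 0.595 with local background. ATRA+POM stood at 0.707 of DMSO (0.483 to 1.02), an interval that includes 1. The intragenic site at 20.4 kb had 30, 23, 11 and 32 reads, with no ratio to DMSO whose interval leaves out 1.

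BATF3, the paralogue needed by a lineage of dendritic cells, had its best site inside one end of the gene on chromosome 1 at 212699475, with 186 reads in DMSO, 174 in ATRA, 55 in POM and 141 in ATRA+POM. ATRA+POM was close to DMSO (1.07, 0.855 to 1.34) and 1.43 times POM, with an interval from 1.04. At 20.9 kb from the body the pileup was 161, 145, 54 and 108, and at 29.5 kb it was 77, 51, 19 and 42. The intervals of their ratios to DMSO include 1 in all 3 treated libraries.

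ATF3, the stress-induced partner that often represses, held the strongest site of the family in DMSO. It lies in the gene body, chr1:212608111-212609753, 6.3 kb before the second listed start, and no list has a summit within 1 kb of either listed start. Its pileup was 556 in DMSO, 530 in ATRA, 213 in POM and 445 in ATRA+POM, so 556, 607, 538 and 629 once scaled. These values lie close together: the ratio to DMSO was 1.09 in ATRA (0.968 to 1.23), 0.968 in POM (0.823 to 1.14) and 1.13 in ATRA+POM (0.997 to 1.28). The site 1.9 kb after the first listed start had 165, 137, 35 and 63 reads and was lower in both POM libraries, at 0.536 (0.361 to 0.776) and 0.540 (0.397 to 0.726), though 0.808 and 0.844 with local background. The site 21.5 kb after that start had 126, 99, 51 and 99 reads and ratios of 1.02 and 1.11.

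A peak was called gained or lost when it overlapped no peak of the other list by 1 bp, and each member count stands beside the share among all peaks of that list. After ATRA, 5 of 50 member peaks were gained, where 19.5% of all ATRA peaks were, and 6 of 52 were lost, where 19.5% of all DMSO peaks were. After POM, 5 of 48 were gained (27.2% of all) and 13 of 52 lost (36.6%). After ATRA+POM, 9 of 56 were gained relative to DMSO (32.7%) and 9 of 52 lost (25.8%). Relative to ATRA, the combination gained 9 of 56 (33.3%) and lost 6 of 50 (26.5%), and relative to POM it gained 11 of 56 (35%) and lost 3 of 48 (17.7%). Each of these member shares was under the share of all peaks, and member peaks were also wider, with a median of 764.5 bp against 577 bp in DMSO. The part of width and strength in this was not tested. Pileup and background of each called peak were also put at the other library's scale. Of the lost peaks, 5 of 6 in ATRA, 6 of 13 in POM and 7 of 9 in ATRA+POM vs DMSO would then reach the smallest −log10 p-value called there. In the other counts every called peak would. The part of depth in these counts was not tested.

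Among strong peaks, a single member call was made in all 5 comparisons, the FOS peak at 24.9 kb that POM lacked, which is 1 of 24 strong member peaks of DMSO against 1.7% of all 20000. No strong member peak was gained in POM, where 2.27% of all were, nor gained or lost in ATRA vs DMSO (0.045% and 0.075% of all). ATRA+POM vs DMSO also had none, against 2.52% gained and 0.87% lost of all. The same held for ATRA+POM vs ATRA (3.38% and 0.815%) and ATRA+POM vs POM (0.35% and 0.645%). Apart from that FOS peak, each strong member peak met a peak of the other list in each comparison.

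**Figure D4:**
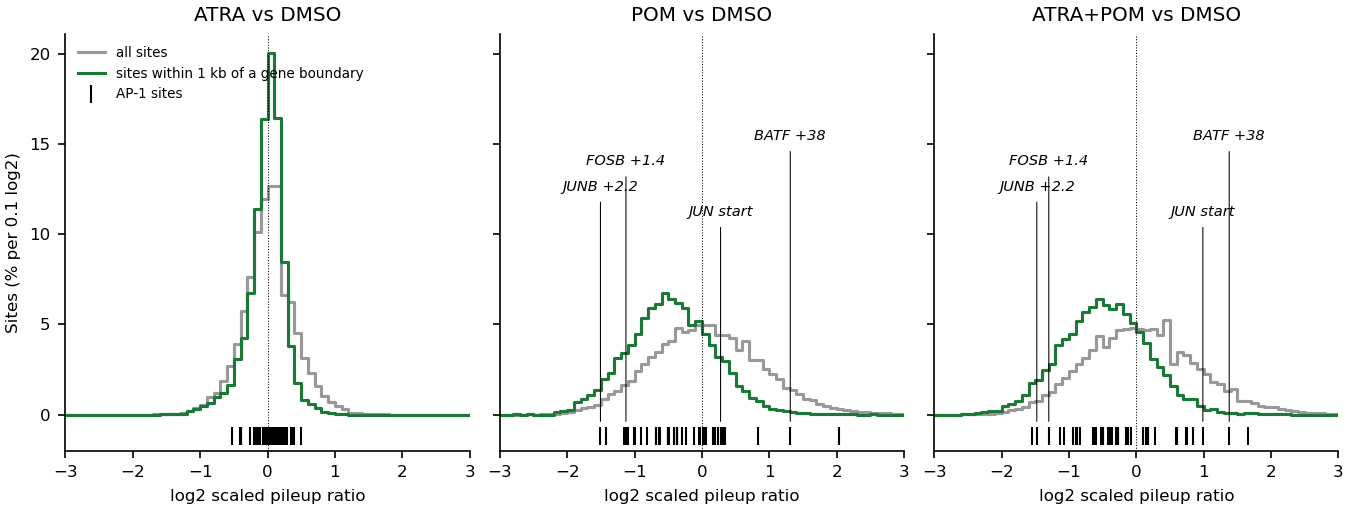
Distribution of the log2 scaled pileup ratio to DMSO (horizontal axis) as percent of sites per 0.1 log2 (vertical axis) for all sites (grey) and sites within 1 kb of a gene boundary (green), with each AP-1 site as a black tick below and 4 sites named. In ATRA the AP-1 ticks sit within 2-fold of DMSO; in POM and ATRA+POM most lie left of 0, as do most boundary sites, with JUNB +2.2 kb and FOSB +1.4 kb to the left and BATF +38 kb to the right.

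By height, in ATRA vs DMSO 0 of 43 sites called in both lists were at least 2-fold higher, where 1.08% of all sites were, and 0 were at least 2-fold lower, where 0.771% were. In POM vs DMSO, 2 of 39 sites were at least 2-fold higher (13% of all sites), JUN at 28.5 kb and BATF at 37.5 kb, and 6 were at least 2-fold lower (8.84%), in JUNB, JUND, FOSB, FOSL1, FOSL2 and BATF. In ATRA+POM vs DMSO the same 2 of 42 were higher (13.6%) and 5 were lower (9.07%), the list for POM without the BATF start. In ATRA+POM vs ATRA, 2 of 44 were higher (11.7%), again JUN at 28.5 kb and BATF at 37.5 kb, and 5 lower (8.54%), FOSB at 1.4 and 10.7 kb and 1 site each of JUNB, JUND and FOSL1. ATRA+POM vs POM had 1 of 45 sites higher (2.89%), FOSL2 at 43.9 kb on 5 and 18 reads with an interval of 0.721 to 6.94, and 0 lower (1.63%).

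The median ratio over member sites was 1.04 in ATRA, 0.776 in POM and 0.775 in ATRA+POM, against 1.01, 1.03 and 1.03 over all sites. Among sites with at least 30 reads in either library, it was 1.02, 0.775 and 0.768 for members, against 0.986, 0.889 and 0.906 for all. Of 37 such member sites in POM, 1 was at least 2-fold higher and 6 lower, against 7.47% and 12.3% of all. Of 36 in ATRA+POM, 1 was higher and 5 lower, against 12.9% and 12.5%. Without this minimum, the member median was 0.817 for ATRA+POM vs ATRA and 1.03 for ATRA+POM vs POM, against 1.00 and 1.02. Sites within 1 kb of any coding gene boundary had a median of 0.722 in POM and also in ATRA+POM. The 9 member sites there had 0.706 and 0.707. Member sites farther away had 0.797 in POM (30 sites) and 0.813 in ATRA+POM (33 sites), against 1.14 and 1.13 over all sites farther away. With the main scale, the member median was thus under 1 in both positions and the median of all sites only at boundaries. In log2 the medians of the farther member sites were -0.327 and -0.299. The boundary scale adds 0.48 to each, which puts both above 1 as ratios. Of the 9 member sites at boundaries, 4 were at least 2-fold lower in POM, where 19.5% of all boundary sites were. For chromosome 19, which holds FOSB, JUNB and JUND, boundary sites had a median of 0.531 in POM and 0.526 in ATRA+POM, against 0.754 and 0.733 for chromosome 1 with JUN. The part of position, of site strength, of depth and of local background in the lower values was not tested.

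The balance of higher and lower member sites depends on the scale. With the main scale 12 of 39 sites were higher in POM and 27 lower, but 22 higher and 17 lower with the boundary scale and 21 and 18 with local background. For ATRA+POM vs DMSO the counts were 14 and 28, against 26 and 16 with the boundary scale, 22 and 20 with local background and 20 and 22 by percentile rank. For ATRA+POM vs ATRA they were 15 and 29, against 22 and 22 with the background scale, 25 and 19 with the boundary scale, 23 and 21 with local background and 21 and 23 by rank. For ATRA vs DMSO they were 25 and 18, against 18 and 25 with the background scale, and for ATRA+POM vs POM 27 and 18, against 22 and 23 with the background scale and 34 and 11 by rank. The background scale shifts every log2 ratio to DMSO by -0.11 in ATRA, 0.23 in POM and 0.17 in ATRA+POM, and the boundary scale by 0.48 in POM and 0.48 in ATRA+POM.

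Genes around AP-1 were read the same way. The 13 other bZIP partners had 75, 72, 62 and 71 peaks in DMSO, ATRA, POM and ATRA+POM, with 6 of 47 sites at least 2-fold higher and 4 lower in POM and 10 of 51 higher and 4 lower in ATRA+POM. BACH2, a repressor of plasma cell differentiation that competes for AP-1 sites, supplied 4 and 6 of the higher sites. JDP2, a JUN dimerization protein encoded between FOS and BATF on chromosome 14, lost 4 of its 6 DMSO peaks in both, where 36.6% and 25.8% of all DMSO peaks were lost, and gained 2 in each. A strong DMSO peak of ATF7, a CRE-binding JUN partner, was lost in POM. The 11 upstream kinases had 39, 37, 38 and 38 peaks, with 2 of 26 sites higher and 5 lower in POM and 4 of 29 higher and 4 lower in ATRA+POM. MAPK10, a JUN kinase, gained 3 peaks and lost 1 in POM and gained 4 and lost 3 in ATRA+POM, and MAPK14, the p38 kinase, lost a strong peak in POM.

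SRF and its ternary complex factors, which drive FOS in response to serum, had 11, 13, 10 and 11 peaks over 4 genes, with 1 of 8 sites higher and 0 lower in POM and 3 of 10 higher and 1 lower in ATRA+POM. The 6 composite element partners had 76, 77, 67 and 70 peaks, with 4 of 43 sites higher and 7 lower in POM and 2 of 49 higher and 6 lower in ATRA+POM. Among them NFATC1, a calcium-dependent factor, lost 12 of 15 DMSO peaks in POM and had 7 of 10 POM peaks gained. IRF4, the plasma cell regulator that joins BATF, lost 5 of 10 in POM and had 3 of 8 gained. The 15 AP-1 target genes had 56, 55, 45 and 54 peaks, with 4 of 39 sites higher and 4 lower in POM and 3 of 38 higher and 4 lower in ATRA+POM. CXCL8, a chemokine gene with an AP-1 site in its promoter, gained the list's only strong peak in each of these comparisons. The 2-fold counts stand beside the 13%, 8.84%, 13.6% and 9.07% of all sites given above. The gained and lost counts stand beside 27.2% gained and 36.6% lost of all peaks in POM and 32.7% and 25.8% in ATRA+POM, and among strong peaks 2.27% and 1.7%, and 2.52% and 0.87%. No list was tested.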

How the data were processed

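Each of the 4 libraries has a deposited list of peaks and one of summits, on hg38 per the submitters' processing notes. The aligner, caller and any Tn5 shift are not stated in the sources used here. The deposited score is 10 times the −log10 q-value. The deposited fold is taken as summit pileup plus 1 over background plus 1. The authors' −log10 p-value and −log10 q-value (q at most 0.05) belong to the summit. Values and column order are the basis for these units. Pileup and background were solved from fold and p-value under a Poisson tail, an assumption about the caller, and 100% of peaks then matched the deposited −log10 p-value to within 0.01.

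Only chromosomes 1 to 22 and X entered, so 2 DMSO and 3 ATRA peaks did not. Genes came from the RefSeq gene table. It gives no exons, so positions are inside a gene body or outside. FOSL1 and BATF3 were not in the promoter table and are placed by gene body. The members, lists and sites were chosen with earlier results of these data known. All 10 genes were named whatever their result, with their start and strongest sites, strong gained or lost sites, the 3 highest and lowest ratios with at least 30 reads per comparison, and regions particular to POM, POM-free or ATRA lists. Further sites of a member, among them JUN at 28.5 kb, FOS at -29.2 and 15.4 kb, FOSL2 at -2.2 kb and ATF3 at 1.9 kb, were chosen after their values were seen, as were ATF7, MAPK14 and CXCL8. With 1 library per group no test was made. Python 3.11.15, numpy 2.4.6, pandas 2.3.3 and scipy 1.17.1 were used, and the code was tested on simulated data. Alternatives were other scales, overlap and distance rules, strong cut-offs, a −log10 q of at least 5 and lists of equal length. Chosen after seeing the data were the best peak of a merged region and division by local background.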

Additional observations from a re-analysis of the deposited data

How the results depend on the processing

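Limits: there is 1 library per group, POM has 33.6% of the depth of DMSO, pileups rest on an assumed caller model, and nearest-gene assignment does not show which gene a site controls. Weak sites, such as those with pileups near the smallest called (8 in DMSO, 4 in POM), are not reliably detectable in both of a pair of lists. No paired analysis was possible because each group has 1 library and no result comes from a test. Of the summary values recomputed under the alternatives, 78 kept within 1.5 times or the stated spread and 62 moved. Of 213 ratios at member sites, 52 moved to the other side of 1 with local background, 33 with the boundary scale and 25 with the background scale, and 31 changed direction by percentile rank. Among the 63 whose interval leaves out 1, these numbers were 13, 7, 0 and 5. None of the 23 ratios of at least 2-fold crossed 1 under these alternatives, but 3, 10 and 14 stayed at least 2-fold with local background, the boundary scale and the background scale. The cause was not tested, except that shorter limits, stricter q-values and wider biotypes leave fewer peaks by construction.

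Member peaks in DMSO, ATRA, POM and ATRA+POM numbered 27, 25, 28 and 30 with a limit of 10 kb, 16, 16, 19 and 18 with 1 kb, and 20, 20, 20 and 22 when the nearest gene could be of any biotype. With 10 kb, gained and lost counts were 1 and 2 in ATRA vs DMSO, 2 and 5 in POM vs DMSO, 2 and 3 in ATRA+POM vs DMSO, 3 and 1 in ATRA+POM vs ATRA, and 3 and 1 in ATRA+POM vs POM. With a −log10 q of at least 5, ATRA vs DMSO had 1 gained and 2 lost, POM vs DMSO 1 gained and 7 lost, ATRA+POM vs DMSO 4 lost and ATRA+POM vs ATRA 2 lost. With lists of equal length, ATRA vs DMSO had 3 gained and ATRA+POM vs POM 6 lost. When absence meant no summit nearby, gained counts were 13 in POM vs DMSO, 15 in ATRA+POM vs DMSO and 14 in ATRA+POM vs ATRA, and ATRA+POM vs POM had 6 lost. Strong gained and lost counts were then 1 and 1 in ATRA vs DMSO, 2 and 2 in POM vs DMSO, 2 and 1 in ATRA+POM vs DMSO, and 1 and 1 in ATRA+POM vs ATRA. With 10000 strong peaks POM vs DMSO had 0 strong lost, so the FOS call at 24.9 kb ended, and with 30000 ATRA+POM vs ATRA had 1.

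Sites at least 2-fold lower in POM vs DMSO numbered 2 with the background scale, 1 with the boundary scale and 0 with local background, and the last gave 1 higher. In ATRA+POM vs DMSO the same 3 alternatives gave 4, 8 and 1 higher and 3, 1 and 0 lower. In ATRA+POM vs ATRA they gave 6, 7 and 0 higher and 3, 1 and 0 lower, and the background scale gave a median log2 ratio of -0.0089. In ATRA+POM vs POM the background scale gave 0 higher. With local background no ratio that was at least 2-fold lower kept that size.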
